A study of Mus musculus with 4 samples.

Results

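Retinoic acid (RA), the active derivative of vitamin A, acts in mouse cells through 6 nuclear receptor genes, the RA receptors Rara, Rarb and Rarg and the retinoid X receptors Rxra, Rxrb and Rxrg. Their transcripts were followed in neonatal male germ cells cultured with and without RA. The genes were chosen by name as the full receptor family, with earlier results of these data known. They are 6 of the 18193 genes that at least 1 probe set of the array names alone. The array annotation assigns 9 of 45037 probe sets to 1 of these genes, 1 each for Rara, Rarb, Rxrb and Rxrg, 2 for Rarg and 3 for Rxra, and 0 probe sets to a receptor together with another gene. The samples were gonocytes, the germ cells that resume development around birth, isolated at 2 days post partum from mouse testes with magnetic beads against THY1, a surface protein. Culture lasted 8 h and used neither serum nor growth factors nor feeders, with ethanol as vehicle in 2 samples and 100 nM RA in the other 2. Strain, genotype and the number of animals behind a sample are not given in the sources used here. Since the labels do not tie the replicates to separate animals or cultures, the p-values reflect only how far these samples spread, which may be technical.

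Each RA receptor binds DNA as a heterodimer with a retinoid X receptor. The pair sits on response elements made of tandem repeats of a short core motif, holds corepressors there without ligand, and exchanges them for coactivators when RA binds. Retinoid X receptors also pair with other nuclear receptors, such as those for thyroid hormone, vitamin D and fatty acids. Rarb is a textbook example of a receptor gene that is itself a direct RA target, through an element in its promoter. In the testis, RA drives spermatogonia towards differentiation and meiosis.

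A promoter window of Rarb is shown because Rarb was the receptor with the large difference. Promoter windows of 300 bases, from 250 before to 50 after each start, came from RefSeq (GRCm38.p6), which lists 13 windows for the 6 receptor genes, 1 of them for Rarb. Each was searched on both strands for the core motif AGGTCA or AGTTCA or GGGTCA or GGTTCA, followed in tandem by any of these after 1, 2 or 5 bases. The Rarb window lies at chr14:16575427-16575726 on the minus strand. It is inside the annotated gene, which spans 16430839 to 17082331, and the upstream end of the gene was not searched. The capitals mark the matching pair of core motifs, 5 bases apart, at −53 to −37 relative to the start that the window surrounds.

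Rarb: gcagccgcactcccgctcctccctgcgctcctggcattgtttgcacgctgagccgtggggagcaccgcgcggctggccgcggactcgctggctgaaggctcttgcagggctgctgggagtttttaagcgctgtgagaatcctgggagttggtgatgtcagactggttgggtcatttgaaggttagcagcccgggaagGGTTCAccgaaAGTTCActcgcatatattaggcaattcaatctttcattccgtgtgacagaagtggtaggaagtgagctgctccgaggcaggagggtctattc

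Such a pair at 5 bases was found in 32 of 32851 windows (0.0974%). The other 12 receptor windows held no match at 1, 2 or 5 bases, which says only that these letters are not in these windows. Pairs at 1 base were in 0.222% and pairs at 2 bases in 0.268% of all windows. Among the other RA pathway genes described further on, only Cyp26a1, an enzyme that degrades RA, had a match at 5 bases. It was 1 of 12 genes of RA supply and clearance with a window, and 1 of 13 direct RA targets. Of 12 coregulators and 12 other partners of retinoid X receptors with a window, 0 had such a match. The Cyp26a1 match lies at −32 to −16 and reads on the opposite strand. The piece shown is chr19:37697764-37697804 on the plus strand, with the pair in capitals.

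Cyp26a1: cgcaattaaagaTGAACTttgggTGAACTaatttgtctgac

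The match is a description of the sequence and no measurement of binding. No positions of the probes in the genome were used, so which transcript forms of a receptor each probe set reads is not known here.

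RNA from each sample was hybridised to 1 Affymetrix Mouse Genome array, and the values are signals on a linear scale. The 4 arrays had trimmed mean signals of 125 and median signals of 26.6 to 29.5. Changes are given on the scale of log2(signal + 5), so fold changes understate those of dim probe sets. A probe set was tested when its mean on that scale reached 4.35, which corresponds to a signal of 15.5, and 27022 did. The 3' over 5' ratio, which moves with RNA quality, was 1.72 and 1.73 for the control transcript Actb with vehicle and 2.08 and 2.32 with RA, and for Gapdh 1.47 to 1.56 and 1.85 to 2.00. Its part in the results was not tested. An exact permutation test of 1 probe set, two-sided, could not go below p = 0.333 at this size, and 4 arrays limit the precision of all values given.

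Of the 9 receptor probe sets, 4 were tested, 1 each for Rarb, Rarg, Rxra and Rxrb, and 5 lay below the filter, with signals from 0.274 to 14.3 over the 4 arrays. Rara and Rxrg had no probe set above it. Rarb passed only through its RA arrays, since both vehicle values lay below the filter level, so its place among the tested probe sets already depended on its difference. The plot of the receptor values shows every one of them.

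**Figure D1:**
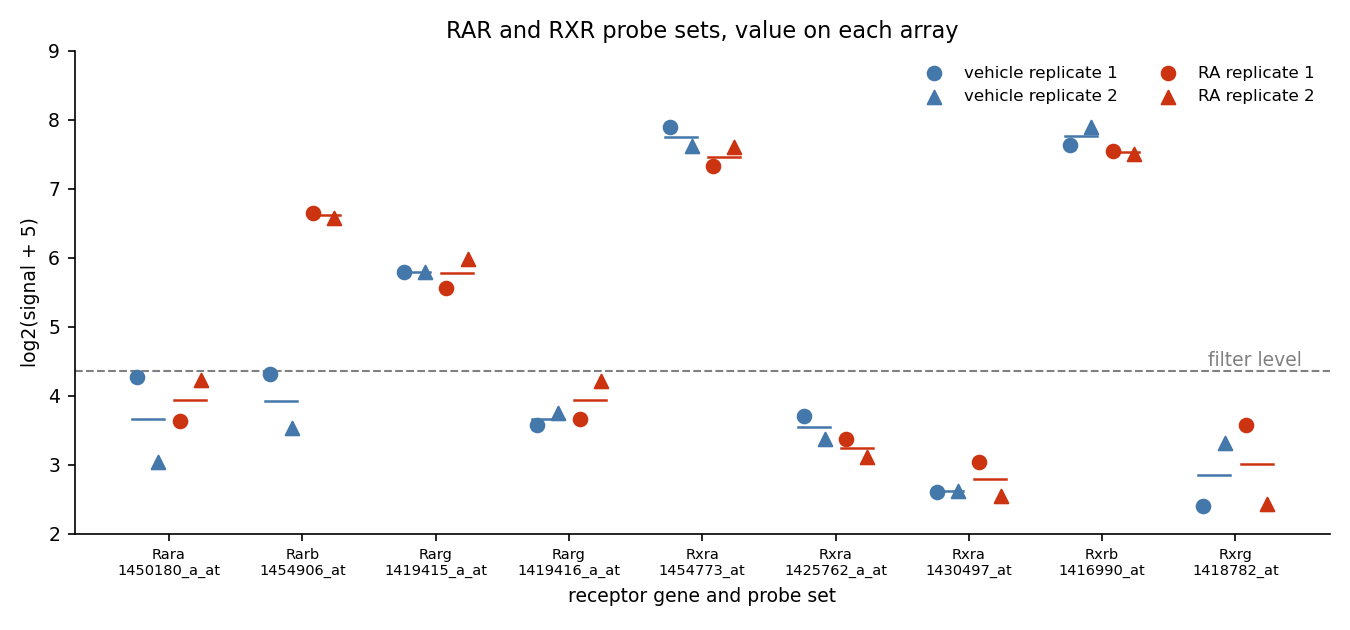
Value of each of the 9 receptor probe sets on each of the 4 arrays, as log2(signal + 5), with vehicle in blue, RA in red, a circle for replicate 1, a triangle for replicate 2, short lines at the group means and a dashed line at the filter level of 4.35. The Rarb probe set moves from below the filter with vehicle to 6.58 and 6.65 with RA, and no other probe set crosses the filter level.

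Among the RA receptors, Rarb was higher on both RA arrays by a wide margin. The mean of the brighter Rarg probe set hardly differed, and Rara was too dim to compare. Rarb (probe set 1454906_at) gave signals of 14.9 and 6.56 without RA and 95.4 and 90.5 in its presence. The vehicle values were low and 2.27-fold apart, the RA values were close together, and the groups did not overlap. The mean signal was 10.7 ± 5.90 with vehicle and 93.0 ± 3.42 with RA (SD, n = 2 each), a ratio of 8.66. On the log2 scale the difference was 2.69 ± 0.35 (SE), or 6.46-fold, with a 95% interval from 3.70-fold to 11.3-fold.

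This was the third largest positive log2 change among the 27022 probe sets tested and the 7th smallest p (limma, unadjusted p = 6.16e-05). Rarb entered that set only through its RA arrays, so these ranks depend on the difference they rank. With no filter, over 45037 probe sets, the unadjusted p was 0.000109 and the adjusted p 0.582 (limma). With the filter, Rarb did not pass adjustment over the table (limma, Benjamini-Hochberg adjusted p = 0.209), and 0 probe sets did. The gap between the groups, the lower RA signal over the higher vehicle signal, was 6.07-fold, the widest upward gap of any probe set tested. It also ranked 1 after quantile normalization, after scaling to equal array medians and with a pseudocount of 1 or 5, and 5 with a pseudocount of 20. The size of the change depended on the pseudocount, since the vehicle signals were near it, with a log2 change of 1.89 for a pseudocount of 20 and 3.10 for 1. The size also depended on the arrays used. Dropping the second vehicle array gave the smallest log2 change, 2.30, and dropping the first the largest, 3.08. Dropping an RA array moved it little, to 2.65 for replicate 1 and 2.73 for replicate 2. Each of these fits leaves a lone array in a group, so no call is read from them.

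Rarg, the receptor that background knowledge places in spermatogonia, was read by a pair of probe sets. The brighter, 1419415_a_at, gave 50.7 and 50.2 without RA against 42.4 and 58.0 in its presence. The RA values lay on either side of the vehicle values, and the group means were 50.4 and 50.2. The log2 change was −0.02 ± 0.29, with a 95% interval from 0.618-fold to 1.57-fold (limma, unadjusted p = 0.947). A change within that interval could not be told from none with these arrays. The sign of this value turned to 0.05 with quantile normalization and 0.06 with equal array medians, so no direction is given. The second Rarg probe set, 1419416_a_at, lay below the filter, with 6.91 and 8.40 against 7.63 and 13.6. Its groups overlapped as deposited, with a log2 change of 0.277. After quantile normalization (0.364) and with equal array medians (0.335), both RA values exceeded both vehicle values. At signals this dim, no change is read from it.

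Rara, which encodes the receptor known mainly from Sertoli cells and later germ cells in the testis, was read by 1 probe set below the filter. It gave 14.3 and 3.21 without RA against 7.43 and 13.8. The vehicle values alone spanned 4.46-fold, wider than any difference between the groups, so neither a level nor a change of Rara can be read from this probe set.

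Among the retinoid X receptors, Rxra and Rxrb were well above the filter in both groups, with slightly lower means with RA and 95% intervals that include no change, and Rxrg lay far below the filter. Rxra, an obligate partner of RA receptors in many tissues, gave 233 and 192 without RA against 156 and 189 on its brightest probe set, 1454773_at. The groups were separated by a ratio of only 1.01, and they overlapped after quantile normalization and after scaling to equal array medians. The mean signal was 212 ± 28.9 with vehicle and 173 ± 23.4 with RA (SD, n = 2 each). The log2 change was −0.29 ± 0.22, and its 95% interval ran from 0.573-fold to 1.17-fold (limma, unadjusted p = 0.227).

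The other 2 Rxra probe sets were below the filter. One, 1425762_a_at, had 8.01 and 5.39 against 5.36 and 3.67, and its groups touched in the same way and overlapped after either rescaling. The other, 1430497_at, had 1.08 and 1.13 against 3.23 and 0.827. Of the 3 Rxra probe sets, 1 thus gave a value that was tested.

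Rxrb, the retinoid X receptor known for wide expression, gave 194 and 234 without RA against 182 and 177 (probe set 1416990_at). Each RA value was under each vehicle value, also after quantile normalization and after scaling to equal medians, with a ratio of 1.06 between the nearest values. The mean signal was 214 ± 28.6 with vehicle and 180 ± 3.28 with RA (SD, n = 2 each). The log2 change was −0.24 ± 0.21, with a 95% interval from 0.605-fold to 1.19-fold (limma, unadjusted p = 0.288).

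Rxrg, known from muscle and parts of the nervous system, gave 0.274 and 4.92 without RA against 6.91 and 0.384 on 1418782_at. The 4 values spanned 25.2-fold with no order by group. Neither a level nor a change of Rxrg can be read from it.

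**Figure D2:**
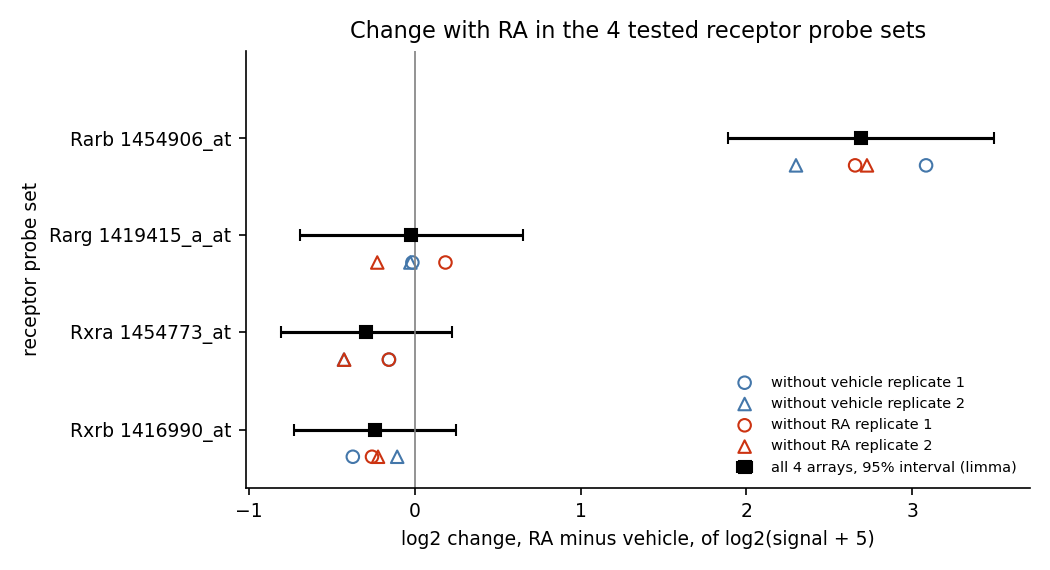
Log2 change with RA (RA minus vehicle, in log2(signal + 5)) of the 4 tested receptor probe sets, with black squares and bars for the fit of all 4 arrays and its 95% interval and open symbols for the values with 1 array left out. Rarb stays between 2.30 and 3.08 with any array left out, Rarg lies on both sides of 0, and Rxra and Rxrb stay below 0 with intervals that include it.

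Of the 4 tested receptor probe sets, 1 was higher and 0 were lower at an unadjusted p under 0.05 in limma, where 1.1% and 1.65% of all probe sets tested were. The groups did not overlap in 1 higher and 2 lower, beside 12.7% and 15.2% of all probe sets tested. The 1 higher in both counts was Rarb, which passed the filter only through its RA arrays, so its place in them depended on its difference. At an adjusted p under 0.05 there was no receptor among the calls, as the calls over the table were 0% in each direction. The 95% interval of Rarb, from 1.89 to 3.49 on the log2 scale, did not overlap those of Rarg, Rxra and Rxrb, the highest of which ended at 0.65. The difference between receptors was not tested itself. In the overview of all probe sets tested, Rarb stands at the upper edge at a low mean signal, and the other 3 lie within the mass of points.

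**Figure D3:**
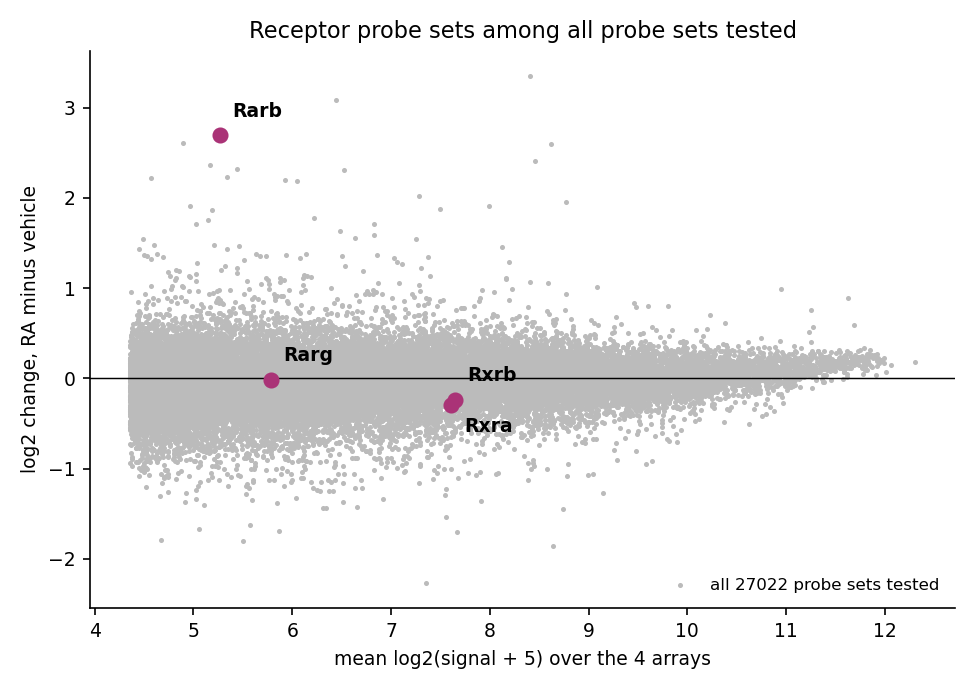
Mean log2(signal + 5) over the 4 arrays against the log2 change with RA for the 27022 probe sets tested in grey, with the 4 receptor probe sets in purple. Rarb, at 2.69, lies among the highest changes, while Rarg at −0.02, Rxra at −0.29 and Rxrb at −0.24 lie inside the cloud.

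Over the 4 arrays the genes with values most like those of Rarb were Stra6, Spon2, Cyp26a1, Tmem255a and Ppbp. Likeness was the root mean square distance between log2 values taken relative to each gene's vehicle mean, and for these genes it ran from 0.324 to 0.584. Stra6, a membrane receptor that takes up retinol, was the nearest, with signals of 44.6 and 29.5 against 175 and 228. Its vehicle arrays differed in the same order as those of Rarb, and its RA arrays were both high. Spon2, an extracellular matrix protein, was next, at 0.491. Ppbp, a platelet chemokine precursor, was the fifth and differed from Rarb on the RA arrays, where it had 162 and 51.9. The genes nearest to Rarg were Mical3 and Cox19, those nearest to Rxra were Fbxo6 and Wfdc3, and those nearest to Rxrb were Irf2bp2 and Hspa13, at distances of 0.0132 to 0.0252. Spon2 and Ppbp, like Rarb, had vehicle means below the filter level and passed it through their RA arrays. These names describe 4 arrays and carry no test, as the genes were picked by these same values.

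**Figure D4:**
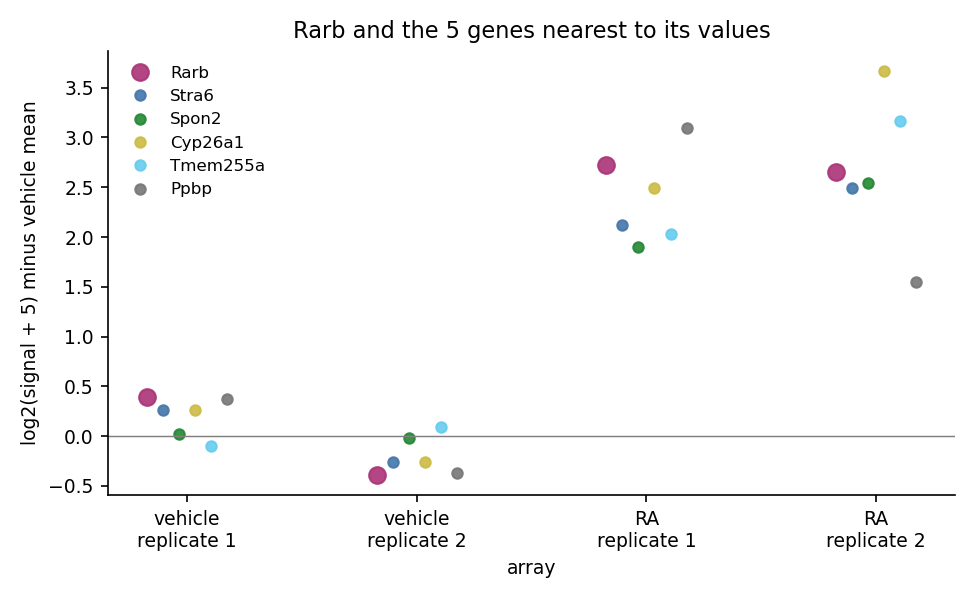
Log2(signal + 5) relative to the vehicle mean, on each of the 4 arrays, for Rarb (large purple point) and the 5 genes with the smallest distance to it. As the choice by distance implies, all 6 lie far above 0 on both RA arrays. Rarb has nearly the same value on these arrays while the other genes spread more.

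The receptors work with other genes, which were read from fixed lists with each gene represented by its brightest probe set. Over all 13011 genes tested, 1.41% were higher and 1.3% lower at an unadjusted p under 0.05, the groups did not overlap in 14.1% and 12.6%, and the median log2 change was 0.0147. No member of any list passed adjustment over the table in limma. Some listed genes are not analysed here, and counts cover the others.

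The other nuclear receptors that pair with retinoid X receptors had log2 changes from −0.55 to 0.71. Of 12 with a probe set, 8 were above the filter, and 0 of these reached an unadjusted p under 0.05 in either direction, a count near the share over all genes. The groups did not overlap in 1 higher (Pparg) and 2 lower (Ppara and Thra). Their median log2 change was 0.128, which turned to −0.24 when RA replicate 1 was left out, to −0.02 when vehicle replicate 2 was, and to −0.12 with no filter. Those with the smallest p were Pparg and Thra. Pparg, a fatty acid receptor that drives fat cell formation, gave 13.5 and 18.1 without RA against 25.9 and 31.9, with the groups apart (log2 change 0.71 ± 0.31). Thra, a thyroid hormone receptor, had 127 and 175 against 117 and 85.6, with the groups apart in the other direction (log2 change −0.55 ± 0.27).

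Coregulators, the proteins that receptors recruit or release on RA binding, went both ways, with log2 changes from −1.06 to 0.49. All 16 with a probe set were above the filter, 1 was higher and 2 were lower at an unadjusted p under 0.05, and the groups did not overlap in 4 higher and 5 lower. The median log2 change was −0.000411. The smallest p belonged to Tacc1, a centrosomal protein that also binds nuclear receptors, with 707 and 811 without RA against 592 and 220 (log2 change −1.06 ± 0.40). The RA values were 2.69-fold apart, RA replicate 2 being the low one. Nrip1, a corepressor recruited by ligand-bound receptors and itself an RA target, had 644 and 582 against 791 and 944 (log2 change 0.49 ± 0.20). The other lower one was Kat2b, a histone acetyltransferase, named after its value was seen (log2 change −0.46 ± 0.19).

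Of 15 genes of RA supply and clearance, 6 were higher and 0 lower at an unadjusted p under 0.05. Cyp26a1, Lrat, Dhrs3, Stra6 and Cyp26b1, which degrade RA, store or reduce its precursors, or take up retinol, had log2 changes from 1.34 to 3.08, and the sixth was Rdh10, which oxidises retinol (0.63 ± 0.20). Yet the list's median was 0.0555, with the other 9 members between −0.69 (Aldh1a3) and 0.49 (Crabp2), both with overlapping groups, and leaving out RA replicate 1 gave −0.05 and leaving out RA replicate 2 gave 0.39. Of 15 direct RA target genes above the filter, 9 were higher and 1 was lower, with a median of 0.797, which was 0.491 with no filter and 0.517 without vehicle replicate 2. Lrat, which is on both lists, passed the filter only through its RA arrays, as Rarb did. The lower one was Ret, a receptor for the growth factor GDNF, with 514 and 562 without RA against 254 and 277, named after its value was seen. The named members are Stra8 and Rec8, of meiotic entry and cohesion, with log2 changes of 3.35 and 1.64, and Cyp26a1, Lrat, Dhrs3 and Cyp26b1, which are also on the supply list. Rarb, at 2.69, lay between Cyp26a1 at 3.08 and Lrat at 2.60. The lists were drawn up with results of these data known, so their counts are no independent support.

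**Figure D5:**
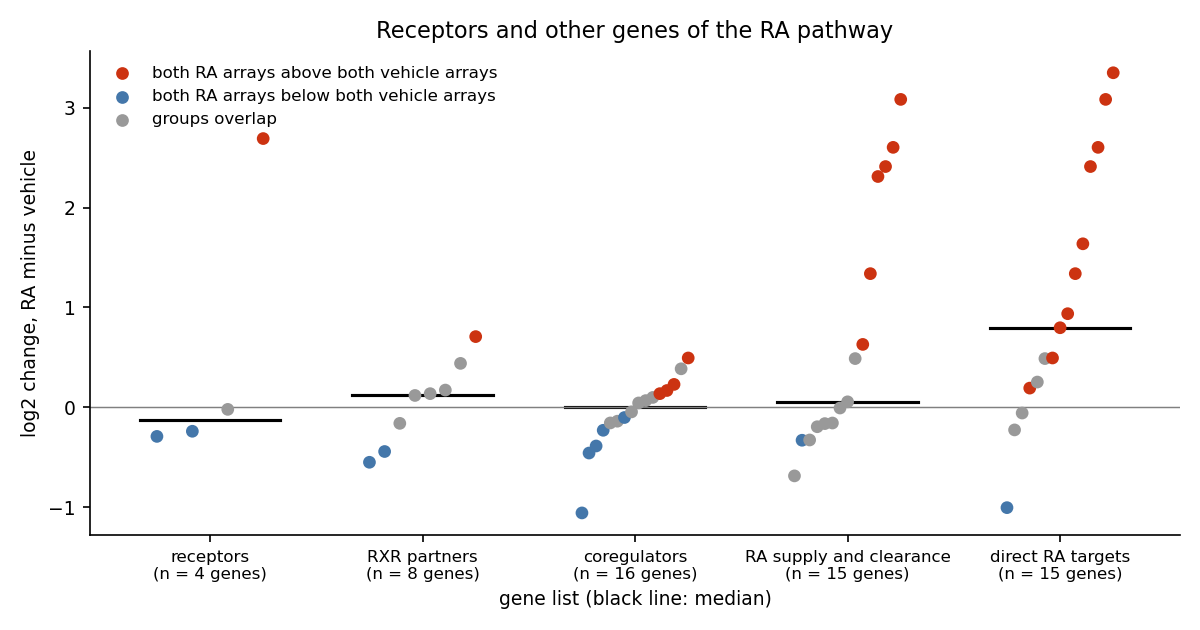
Log2 change with RA of the genes above the filter in 5 lists, each gene read from its brightest probe set, in red where every RA value exceeded every vehicle value, in blue where it was under and in grey where the groups overlap, with the median as a black line. Rarb is the single high point among the 4 receptors, and retinoid X receptor partners and coregulators lie between −1.06 and 0.71. The high points on the right are genes of retinol uptake and storage, RA clearance and direct targets.

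Which cells gave the receptor signals cannot be read from bulk RNA, where fewer cells of a type and less RNA per cell cannot be told apart. Germ cell markers were bright, with Ddx4 at 1305 and 1289 with vehicle and 1300 and 1121 with RA and Dazl at 1606 and 1603 against 1514 and 1296. Summed over 15 germ cell markers the signal was 10586 to 11015 with vehicle and 9899 to 10293 with RA, with both RA arrays below both others. At an unadjusted p under 0.05 (limma), 0 of them were higher and 3 (Zbtb16, Ret and Lin28a) lower. Over all 13011 genes tested, 1.41% were higher and 1.3% lower. Markers of somatic cells were present too. The stromal markers summed to 7727 to 10008 with vehicle and 8218 to 11052 with RA over 8 genes, and 9 Sertoli cell markers to 3054 to 3901 and 3415 to 4356, with Amh and Fshr below the filter and Wt1 the 1 of them higher at an unadjusted p under 0.05 (limma). For 6 endothelial markers the sums were 197 to 221 and 236 to 296, with both RA arrays above both others. Of these 6 genes, 0 were at an unadjusted p under 0.05 in limma. For 4 Leydig cell markers they were 1374 to 2495 and 1509 to 1978, for 6 macrophage markers 961 to 1931 and 733 to 1639, and for 6 mast cell markers 3591 to 8159 and 2402 to 7672, with Mcpt1 and Mcpt4 lower at an unadjusted p under 0.05 (limma). The groups did not overlap in 14.1% higher and 12.6% lower of all genes tested. For germ cell markers these counts were 0 higher and 4 lower of 15 tested, and for mast cell markers 0 and 2 of 6. Sertoli cell markers had 2 and 0 of 7, endothelial markers 2 and 0 of 6, and stromal markers 1 and 1 of 8. Leydig cell and macrophage markers had 0 in either direction. No marker was at 0 on any array, but neither was Rxrg, with a lowest signal of 0.274. A signal above 0 thus does not show that a cell type was present. The part of these cells in the receptor values was not tested.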

How the data were processed

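Total RNA of 4 samples was amplified, labelled and hybridised to 1 Affymetrix Mouse Genome array each, and images were quantified with GCOS, per the labels. The deposited values are linear intensities, 1 for each probe set of an array. For probe summary and array scaling, the method is not given in the sources here. The intensities were used as deposited. After 64 control probe sets were left out, 45037 remained.

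Groups came from the sample titles. Values were taken as log2(intensity + 5) and kept at or above the 40th percentile of their mean. RA was compared with vehicle over all 27022 probe sets kept, with limma 3.58.1 in R 4.3.3 (lmFit, eBayes with an intensity trend, two-sided) and Benjamini-Hochberg adjustment at 0.05. The fit had 2 residual degrees of freedom and 5.81 prior degrees of freedom for the variance. It was tested on simulated data. Symbols came from the platform annotation, updated through Entrez IDs, and promoter windows from RefSeq (GRCm38.p6).

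The members and lists were chosen with earlier results of these data known. Beside the receptors, the named genes were per list at most 6 whose groups did not overlap at an unadjusted p under 0.01, or else the 2 with the smallest p, and the genes nearest to each receptor. Other names were chosen after their values were seen. Alternatives were quantile normalization, equal medians, pseudocounts of 1 and 20, no filter and a 60th percentile filter, no trend, the replicate number as a block, and leaving out each array. The motif search and the rank of the gap were set after the values were seen. Python 3.11.15 with matplotlib 3.10.9 made the figures.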

Additional observations from a re-analysis of the deposited data

How the results depend on the processing

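With 4 arrays, small changes of dim probe sets cannot be seen, and signals below the filter level of 15.5 carry little information on ratios. Rarb kept its direction under every alternative in which it was tested, with a log2 change of 2.30 to 3.08 with 1 array left out, 2.74 after quantile normalization, 2.76 with equal array medians, 3.10 with a pseudocount of 1 and 1.89 with a pseudocount of 20. With the 60th percentile filter it was not tested, as 2 receptor probe sets, of Rxra and Rxrb, remained. In the other fits of all 4 arrays without a block, the adjusted p of Rarb (limma) ran from 0.0796 with equal array medians to 0.582 with no filter. The brighter Rarg probe set had a log2 change of 0.0474 after quantile normalization and 0.0620 with equal array medians. The change ran from −0.225 to 0.185 with 1 array left out. Rxra and Rxrb kept their sign and did not pass in any alternative. Probe sets called higher numbered from 0 to 50 with 1 array left out and those called lower from 0 to 102. Those fits had 1 residual degree of freedom and assume that the lone array varies like the other group. Their prior degrees of freedom ran from 8.3 to 27.96, against 5.81 with all 4 arrays. Their calls thus rest largely on the prior and add no support for any gene. The replicate number as a block gave 221 higher and 322 lower and called Rarb (log2 change 2.69, limma, adjusted p = 1.66e-20). That fit also had 1 residual degree of freedom and an infinite variance prior, so its p-values rest on the prior. The deviations of same-numbered arrays from their group means correlated at 0.526 over probe sets. With 2 numbers and no label that ties them, the samples share only a number.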

Other observations

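All genes whose promoter window held a tandem pair of core motifs 5 bases apart, Rarb among them, were read in the same way as the receptors, a search made after the values were seen. Of 31 such genes, 11 had a probe set and 7 were above the filter. In 3 of the 7 (42.9%), Rarb, Cyp26a1 and Ppbp, every RA value exceeded every vehicle value, beside 14.1% of all 13011 genes tested. The other 4 were Blvrb, Cfap45, Prokr2 and Tnfsf13b, with log2 changes from 0.05 to 0.42 and overlapping groups. Of the 4 below the filter, 1 was higher and 1 lower in the same sense, and 2 overlapped. With 71 genes that held a pair at 1 base, 27 were tested, 5 higher (18.5%) and 1 lower (3.70%) in the same sense. With 84 at 2 bases, 11 were tested, 3 higher (27.3%) and 2 lower (18.2%). Over all 13011 genes tested, 14.1% were higher and 12.6% lower in this sense. Rarb and Ppbp had vehicle means below the filter level and passed it through their RA arrays, so the filter itself bears on these counts, which are a description and were not tested.

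Ppbp, the precursor of a platelet chemokine and 1 of the 5 genes nearest to Rarb, holds its match at −246 to −230, read on the opposite strand. The first 33 bases of its RefSeq window, at chr5:90768268-90768300 on the plus strand (GRCm38.p6), are shown with the pair in capitals.

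Ppbp: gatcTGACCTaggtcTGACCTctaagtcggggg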
